A study of Mus musculus with 12 samples.

Results

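The genes described here are the regulators of skeletal muscle gene expression Myod1, Myog, Myf5 and Myf6, the MEF2 genes Mef2a, Mef2c and Mef2d, the MEF2 coactivator Mamstr, and Pax7. They were chosen by gene name, with earlier results of these data known, and make up 9 of the 54532 genes in the muscle table. All 9 had a mean of at least 0.5 FPKM (fragments counted per gene, divided by gene length and by library scale) over the 12 libraries and were among the 12754 genes tested. The RNA came from the gastrocnemius, the large muscle of the calf, of female ICR SCID mice, an immunodeficient strain. Each of 3 groups had 4 libraries that the submitters describe as biological replicates. The mice of group NTV had no tumour and were given vehicle. Those of group TV bore an HT1080 tumour under the skin (HT1080 is a human fibrosarcoma cell line) and were also given vehicle. Group TL bore the HT1080 tumour and was given selpercatinib, which inhibits the kinase RET, at 30 mg/kg by oral gavage once a day for 19 days. The study concerns cancer cachexia, a wasting of muscle and fat in the presence of a tumour. The tumour model rests on 1 cell line, and without a tumour-free group given selpercatinib the effect of the drug in healthy muscle was not measured.

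MYOD1, MYF5, myogenin (Myog) and MRF4 (Myf6) are basic helix-loop-helix (bHLH) factors that pair with E-proteins, bind E-boxes and switch on muscle genes. MYF5 and MYOD1 act early, in committed precursor cells, myogenin acts as these cells fuse into fibres, and MRF4 is the main one in adult fibres. MEF2 proteins bind A/T-rich sites in many of the same genes, are held in check by class IIa histone deacetylases, and are helped by coactivators such as MAMSTR. PAX7 marks the satellite cells, the stem cells that lie along the fibres. Adult fibres raise Myog and the acetylcholine receptor genes after they lose their nerve.

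Myog and Mamstr are the members whose promoters are printed, because Myog is a textbook example of a promoter with E-boxes and a MEF2 site and Mamstr differed most between the vehicle groups. RefSeq windows on GRCm38.p6 were matched for 7 of the 9 genes, with 9 windows in all, and not for Myod1 or Myf6. The 250 bases before the RefSeq Myog start (chr1:134289754-134290003, forward strand) and before the Mamstr start (chr7:45639727-45639976, forward strand) are given 5′ to 3′, with E-boxes (CANNTG) and the 8-base MEF2 core (TA, then 4 bases that are each A or T, then TA) in capitals.
Myog: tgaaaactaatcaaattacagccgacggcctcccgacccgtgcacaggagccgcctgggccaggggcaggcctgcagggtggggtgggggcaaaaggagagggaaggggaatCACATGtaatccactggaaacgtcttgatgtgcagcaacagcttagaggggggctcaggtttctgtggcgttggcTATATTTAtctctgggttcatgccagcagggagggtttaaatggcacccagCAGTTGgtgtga
Mamstr: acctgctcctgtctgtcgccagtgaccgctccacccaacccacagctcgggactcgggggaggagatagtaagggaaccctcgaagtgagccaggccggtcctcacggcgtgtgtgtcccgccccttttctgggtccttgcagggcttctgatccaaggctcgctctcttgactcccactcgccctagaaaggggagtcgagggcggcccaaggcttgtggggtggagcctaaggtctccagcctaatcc
The Myog window holds the E-box CACATG at 138 to 133 bases before the start, the core TATATTTA at 63 to 56 and the E-box CAGTTG at 12 to 7. The RefSeq start of Myog lies downstream of the start of the deposited gene model (134289989), so the last bases of the window, CAGTTG included, fall inside that model. The Mamstr window holds neither motif on either strand. E-boxes are common, with at least 1 in 66.2% and at least 2 in 31.8% of 32851 RefSeq promoters of this length. The MEF2 core was in 8.56% and both motifs together in 5.88%. Of the other members, a Mef2c window (chr13:83503784-83504033) held the E-boxes CAAGTG and CATATG and the core TAATTTTA, and another Mef2c window held 1 E-box. The windows of Mef2a, Mef2d, Myf5 and Pax7 held neither. A match to such short letters describes the sequence and does not show binding.

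Libraries held 14939830 to 23580603 reads assigned to genes, recovered from the steps of the FPKM values, and levels below are FPKM as mean ± SD (n = 4). Changes are differences of log2(FPKM + 0.5) with the standard error from limma, and a gene was called at a Benjamini-Hochberg adjusted p under 0.05 over all tested genes. The added 0.5 understates the change of low genes. The 14 skeletal muscle fibre markers were all detected, with summed levels of 46391 to 89370 FPKM, and no B or T cell marker of 8 reached the filter. On principal component 2 (12.8% of the variance), TL replicates 1 and 5 lay at -31.9 and -32.6, against -3.07 or higher in every other library. These libraries and NTV replicate 5 held Ucp1, the brown fat uncoupling protein, at 58.3, 3.97 and 53.4 FPKM, so results are also given without these 3 libraries where that ends a call. Reads of mitochondrial genes made up 11.6% to 13.5% in NTV and 5.08% to 7.70% in TV. In TL they made up 10.1% and 13.9% in replicates 1 and 5, and 6.04% and 6.55% in replicates 4 and 7.

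In tumour-bearing mice given vehicle, 4 of the 9 genes were called against tumour-free mice. Myf6, Myog and Mef2d rose, by 2.24-fold, 2.09-fold and 1.30-fold in mean FPKM, and Mamstr fell to a level 3.31-fold lower. In mice given selpercatinib, Mamstr was 4.14-fold and Myod1 3.18-fold higher than in TV, and the other 7 genes were not called. Against tumour-free mice, TL was higher in Myod1, by 3.22-fold, and in Myog, by 2.63-fold. Mamstr thus differed between TV and each of the other groups, whereas Myod1 differed between TL and each of the other groups. The comparisons share their libraries, so they are not independent of one another.

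Called genes made up 25.2% of all tested genes in TV against NTV (13.8% higher, 11.5% lower), beside 3 members higher and 1 lower. In TL against TV the shares were 0.517% of all genes, 0.235% higher and 0.282% lower, beside 2 members higher and 0 lower. By raw p in that comparison Mamstr ranked 11 and Myod1 31 among the 12754 genes. In TL against NTV 8.81% of genes were called, 4.19% higher and 4.62% lower, beside 2 members higher and 0 lower. The median log2 change of the 9 members was 0.036, 0.20 and 0.32 in these 3 comparisons, against 0.015, -0.0031 and 0.022 over all tested genes. With 9 genes in all, these counts describe the members and were not tested as a group. Because the members were chosen with earlier results known, the shares of all genes beside them are no test of the members.

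**Figure D1:**
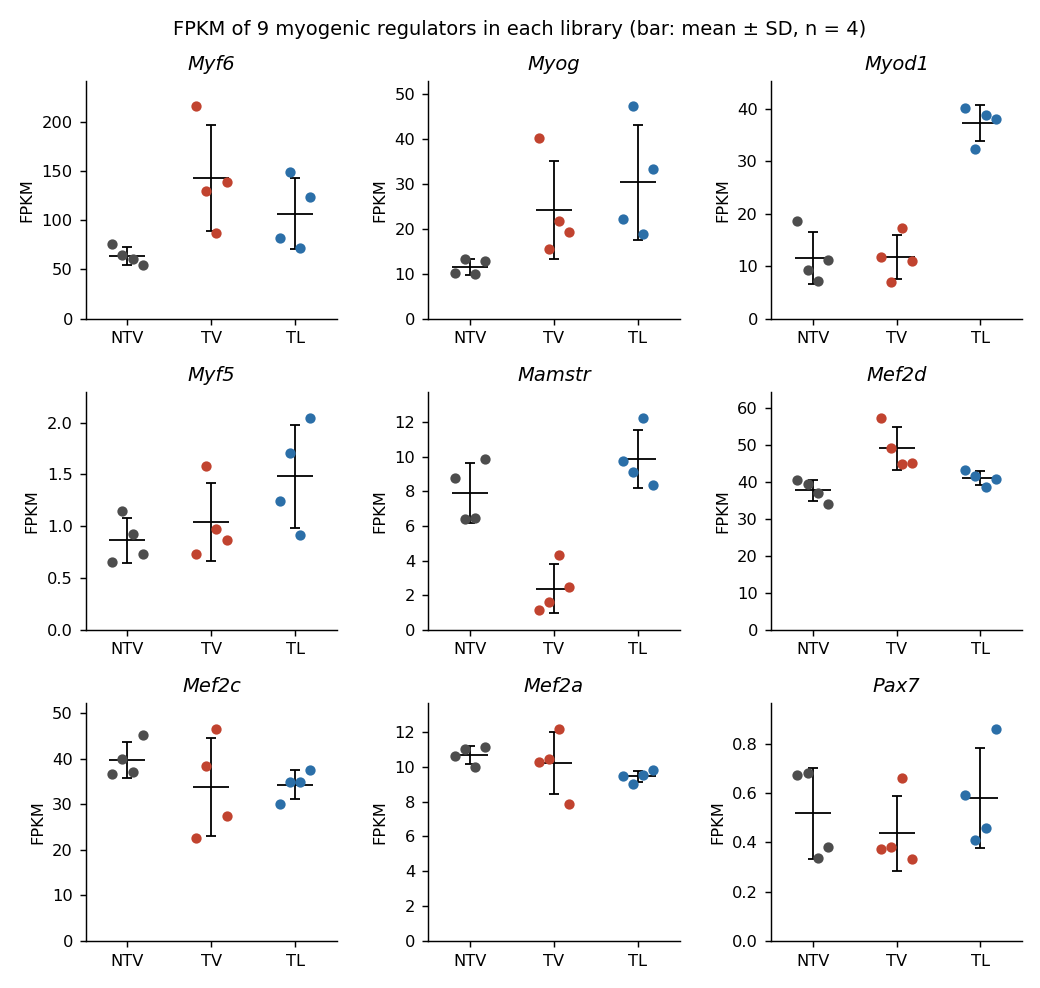
Level of each of the 9 genes in FPKM, on linear axes that start at 0, by group (NTV, TV and TL); points are the 4 libraries of a group, with the mean as a line and the SD as an error bar. The 4 Mamstr values of TV, 1.14 to 4.30, lie below all others, and the 4 Myod1 values of TL, 32.2 to 40.0, lie above all others.

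Myf6 (ENSMUSG00000035923, chr10:107492853-107494737, reverse strand, mm10) was the most abundant member, with 104 FPKM over all libraries and rank 369 in the whole table. It measured 75.6, 64.5, 60.1 and 54.1 FPKM in NTV replicates 2, 3, 5 and 6, and 215, 130, 86.5 and 139 in TV replicates 3, 4, 6 and 8. TL replicates 1, 4, 5 and 7 had 81.6, 148, 72.1 and 124 FPKM. Every TV value lay above every NTV value, TV replicate 3 being the highest of all, and the TL values overlapped both groups, from within the NTV range to within the TV range. Group means were 63.6 ± 9.09, 143 ± 53.6 and 106 ± 35.9. Myf6 rose in TV against NTV (log2 change 1.09 ± 0.28, adjusted p = 0.0148) and was called at every other setting tried. TL differed from TV by -0.41 ± 0.28 (95% interval -1.01 to 0.19, adjusted p = 0.506) and from NTV by 0.69 ± 0.28 (0.09 to 1.29, adjusted p = 0.132), so neither a return to the tumour-free level nor a lack of change was resolved.

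Myog (ENSMUSG00000026459, chr1:134289989-134292548, forward strand), whose promoter is printed above, measured 10.1, 13.3, 9.90 and 12.9 FPKM in NTV. TV had 40.2, 15.5, 21.7 and 19.3 FPKM, and TL had 22.3, 47.2, 18.8 and 33.2. All 8 tumour-bearing libraries lay above the 4 tumour-free ones, and TV and TL overlapped. Means were 11.5 ± 1.81, 24.2 ± 11.0 and 30.4 ± 12.8. Myog rose in TV against NTV (0.95 ± 0.31, adjusted p = 0.0410) and in TL against NTV (1.28 ± 0.31, adjusted p = 0.0267). TL and TV differed by 0.33 ± 0.31 (95% interval -0.34 to 1.0, adjusted p = 0.650). The TV call ended without any 1 of NTV replicates 2, 3, 5 and 6, TV replicates 3 and 6 and TL replicate 7 (adjusted p up to 0.104), the change being 0.68 without TV replicate 3, and the TL call ended without NTV replicate 2, 5 or 6 or TL replicate 4 or 7 (up to 0.0722). No filter on low values ended both (0.0882 and 0.0591), and an equal FPKM total (0.0658) or leaving out the libraries with Ucp1 (0.0659) ended the TV call.

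Myod1 (ENSMUSG00000009471, chr7:46376474-46379099, forward strand) behaved unlike Myf6 and Myog. NTV libraries had 18.6, 9.32, 7.21 and 11.1 FPKM, and TV libraries 11.7, 6.98, 17.2 and 11.0. TL libraries had 40.0, 32.2, 38.7 and 38.0 FPKM, from 1045 to 1642 reads each. The NTV and TV values covered the same range, and the lowest TL value was above the highest of both. With means of 11.6 ± 4.96, 11.7 ± 4.20 and 37.2 ± 3.45, Myod1 rose in TL against TV (1.69 ± 0.28, adjusted p = 0.0233) and against NTV (1.73 ± 0.28, adjusted p = 0.00600). TV and NTV differed by 0.04 ± 0.28 (95% interval -0.57 to 0.64, adjusted p = 0.941). The size of the TL-TV difference was between 1.48 and 1.89 when any 1 library was left out, but its call ended without TV replicate 3 or 4 or TL replicate 1, 5 or 7 (adjusted p up to 0.0857), with no filter (0.0671) and with only TV and TL in the fit (0.0621). Without the 3 libraries with Ucp1 it was 1.61 (adjusted p = 0.335, with 2 TL libraries left), and the TL-NTV call ended at 0.0508.

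Myf5 (ENSMUSG00000000435, chr10:107482908-107486134, reverse strand) lies 6718 bases from Myf6 and was far lower, with 25 to 99 reads per library. NTV had 0.657, 1.14, 0.927 and 0.734 FPKM, TV 0.729, 1.58, 0.975 and 0.865, and TL 1.25, 1.71, 0.917 and 2.05. The 3 groups overlapped, and no comparison called the gene. The largest difference, TL against NTV, was 0.51 ± 0.21 (95% interval 0.05 to 0.97, adjusted p = 0.139). In TV against NTV it was 0.16 ± 0.21 (adjusted p = 0.624), beside the 1.09 of its neighbour Myf6.

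**Figure D2:**
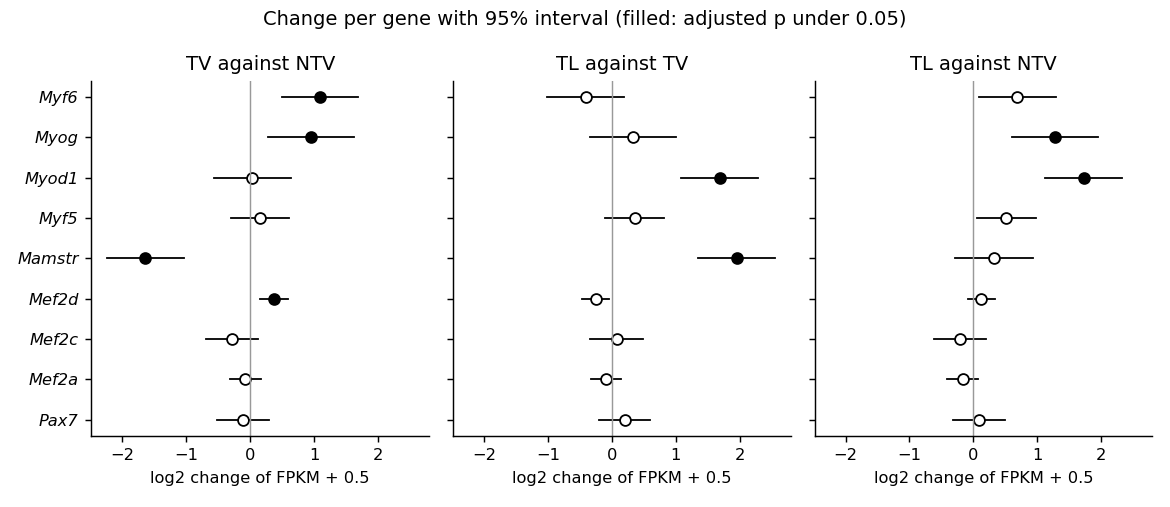
Log2 change of FPKM + 0.5 for the 9 genes in the comparisons TV-NTV, TL-TV and TL-NTV, with 95% intervals from limma; filled points are called at an adjusted p under 0.05. Called changes are Myog, Myf6, Mef2d and Mamstr in the first comparison, Myod1 and Mamstr in the second, and Myod1 and Myog in the third.

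Added up, the 4 bHLH genes gave 78.1 to 105 FPKM in NTV, 126 to 268 in TV and 130 to 230 in TL. Their makeup also shifted. Myf6 supplied 68.6% to 76.9% of the sum in NTV, 68.5% to 84.4% in TV and 55.2% to 64.6% in TL, so its share was lowest in all 4 TL libraries although its level there was not called against either group. Myod1 supplied 9.23% to 17.7%, 4.36% to 13.6% and 14.0% to 29.6%. These shares are descriptions without a test, and each rests on the same libraries as the single genes.

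**Figure D3:**
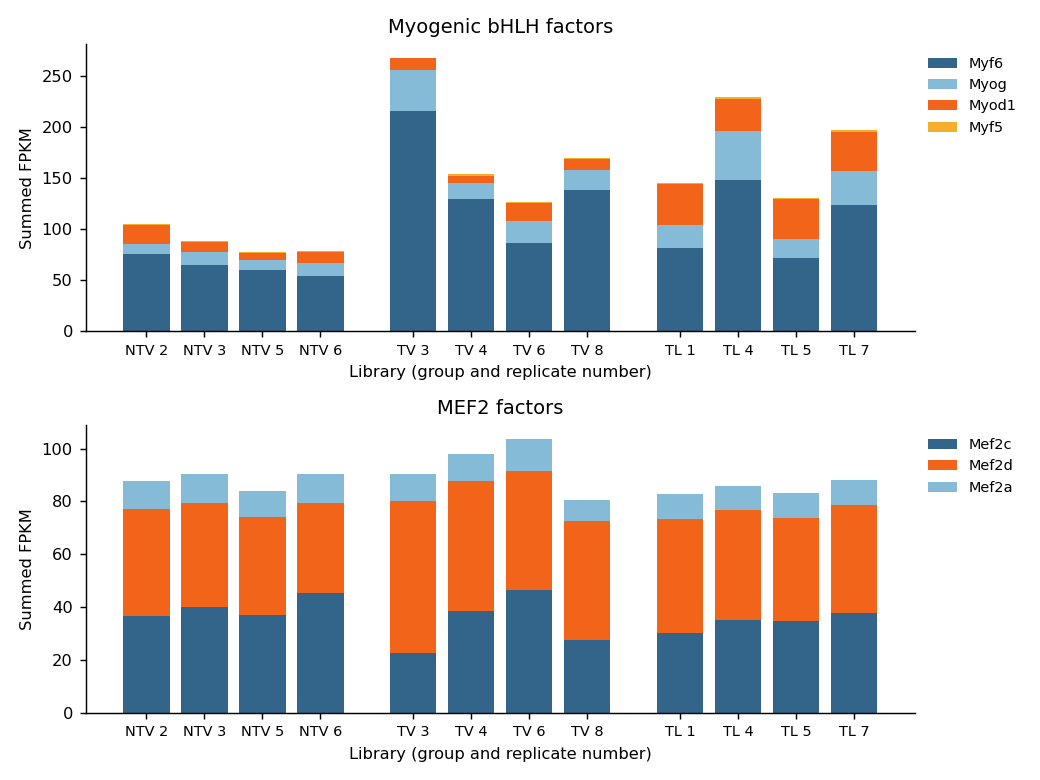
Summed FPKM of the 4 bHLH genes and of the 3 MEF2 genes in each library, as stacked bars by gene, from a 0 baseline. The bHLH sum is 78.1 to 105 FPKM in NTV and at least 126 in every tumour-bearing library, while the MEF2 sum stays between 80.6 and 104 FPKM in all 12.

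Mamstr (ENSMUSG00000042918, chr7:45639977-45646521, forward strand) encodes a SAP domain protein that binds MEF2 and raises its activity in muscle. NTV libraries had 8.76, 6.42, 6.45 and 9.88 FPKM, and TV libraries 1.14, 1.61, 4.30 and 2.48. TL libraries had 9.73, 9.11, 12.3 and 8.38 FPKM. The TV libraries were the 4 lowest of the 12, and TL and NTV overlapped. From 7.88 ± 1.73 in NTV, Mamstr fell to 2.38 ± 1.39 in TV (-1.64 ± 0.28, adjusted p = 0.00262), a call kept at every other setting tried. It rose to 9.87 ± 1.68 in TL (1.95 ± 0.28 against TV, adjusted p = 0.0157). TL and NTV differed by 0.32 ± 0.28 (95% interval -0.29 to 0.92, adjusted p = 0.495), an interval that still allows a TL level above the tumour-free one. The TL-TV difference was 1.72 to 2.24 when any 1 library was left out, and its call ended without TL replicate 1 or TL replicate 5 (adjusted p up to 0.0650) and with only TV and TL in the fit (0.0747). Without the 3 libraries with Ucp1 it was 1.80 (adjusted p = 0.328).

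Mamstr and Myod1 lie on the same chromosome, 729952 bases apart, with 38 genes between them of which 14 were tested. Limma called 0 of these 14 in TL against TV (1 at an unadjusted p under 0.05), beside 0.517% of all genes. In TV against NTV it called 3 (Rpl18, Nomo1 and Tmem143, 2 of them higher), beside 25.2% of all genes. Only Nomo1 was called in TL against NTV, beside 8.81%.

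The MEF2 genes moved less. Mef2d (ENSMUSG00000001419, chr3:88142372-88172086, forward strand) had 40.5, 39.5, 37.0 and 34.0 FPKM in NTV, 57.5, 49.3, 44.9 and 45.1 in TV and 43.2, 41.7, 38.7 and 40.9 in TL. All TV values were above all values of the other 2 groups. Mef2d rose in TV from 37.8 ± 2.93 to 49.2 ± 5.88 (0.37 ± 0.10, adjusted p = 0.0174), and TL was lower than TV without a call (-0.25 ± 0.10, adjusted p = 0.245). The TV call ended without NTV replicate 6 (adjusted p = 0.0546), with an equal FPKM total in every library (0.0805), with quantile scaling (0.112) and without the 3 libraries with Ucp1 (0.0615). The antisense gene 1700113A16Rik overlaps Mef2d by 531 bases at 0.326 FPKM on the other strand, and without a statement on strand-specific counting, reads of the overlap cannot be told apart.

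Mef2c (ENSMUSG00000005583, chr13:83504034-83667080, forward strand) had 36.7, 40.0, 37.1 and 45.4 FPKM in NTV, 22.6, 38.4, 46.6 and 27.5 in TV and 30.1, 34.9, 34.9 and 37.6 in TL. TV held both the lowest and the highest library, and no comparison called the gene (TV against NTV -0.28 ± 0.19, adjusted p = 0.291). Mef2a (ENSMUSG00000030557, chr7:67231163-67372858, reverse strand) had 10.6, 11.0, 9.97 and 11.1 FPKM in NTV, 10.3, 10.5, 12.2 and 7.88 in TV and 9.46, 9.02, 9.56 and 9.80 in TL. Each TL value was below each NTV value, but the difference was small and not called (-0.17 ± 0.11, adjusted p = 0.352). Lysmd4 on the opposite strand (2.58 FPKM) overlaps Mef2a by 76168 bases from gene start to end, although its own gene length is 5121 bases. Gm44667 on the same strand (0.439 FPKM) overlaps Mef2a by 3337 bases. How many counted bases are shared was not measured, and reads of the overlaps cannot be told apart there either. Mef2d supplied 37.6% to 46.2% of the MEF2 sum in NTV, 43.3% to 63.6% in TV and 46.4% to 52.2% in TL.

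Pax7 (ENSMUSG00000028736, chr4:139737062-139833528, reverse strand) was the lowest member, at 0.512 FPKM over all libraries, with 27 to 117 reads each. It measured 0.673, 0.682, 0.338 and 0.381 FPKM in NTV, 0.371, 0.382, 0.663 and 0.332 in TV and 0.591, 0.411, 0.456 and 0.860 in TL. The groups overlapped and no difference was called (TV against NTV -0.12 ± 0.19, adjusted p = 0.683; TL against TV 0.20 ± 0.19, adjusted p = 0.646). The 20 satellite cell markers, Pax7 and Myf5 among them, summed to 63.1 to 74.9 FPKM in NTV, 75.5 to 96.1 in TV and 64.5 to 79.1 in TL. These sums are weighted to the most abundant markers, Itga7, Sdc4 and Cdh15. The median log2 change of the 14 tested markers in TV against NTV was -0.12. Of these 14, Cdh15 and Itga7 rose in TV and Cd34, Heyl and Spry1 fell. The part of satellite cell number in the member results was not tested. In whole muscle, fewer cells of a type and less RNA per cell cannot be told apart, here and for the other members.

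Groups did not overlap in TV against NTV for Myog, Myf6, Mamstr and Mef2d, where 27.1% of all tested genes did not overlap. In TL against TV they did not overlap for Myod1, Mamstr and Mef2d, beside 7.42% of all genes, and in TL against NTV for Myod1, Myog and Mef2a, beside 20.8%.

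Genes with the most similar course over the 12 libraries were sought for the 5 called members among 9666 protein-coding genes with a mean of at least 1 FPKM, by the root-mean-square (RMS) difference of centred log2 values. Nearest to Myod1 (own RMS 0.891) were Mpp3 (0.426), Stxbp4 (0.460) and Tppp2 (0.509). Mpp3, a membrane scaffold gene, had 2.28 ± 0.51, 2.53 ± 0.70 and 6.34 ± 0.805 FPKM in NTV, TV and TL. Among the nearest to Mamstr (own RMS 0.938) were Inka2 (0.430) and Fam78a (0.438), Inka2 having 3.13 ± 0.585, 1.47 ± 0.405 and 5.02 ± 0.822 FPKM. Like Mamstr, Inka2 was lowest in TV.

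Nearest to Myog (own RMS 0.690) were Chrnb1 (0.344), which encodes the beta subunit of the muscle acetylcholine receptor, Riiad1 (0.348) and the ribosomal gene Rplp0 (0.365). Chrnb1 had 21.2 ± 1.10, 37.2 ± 4.40 and 36.3 ± 12.3 FPKM. For Myf6 (own RMS 0.588) they were Mapk1ip1 (0.186), Mknk2 (0.214) and Map3k8 (0.216), and for Mef2d (own RMS 0.187) Ap3d1 (0.0724), Zc3hav1 (0.0739) and Xpo5 (0.0754). A member that varied less, such as Mef2d, has smaller differences throughout. Likeness was not tested and says nothing of shared control.

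**Figure D4:**
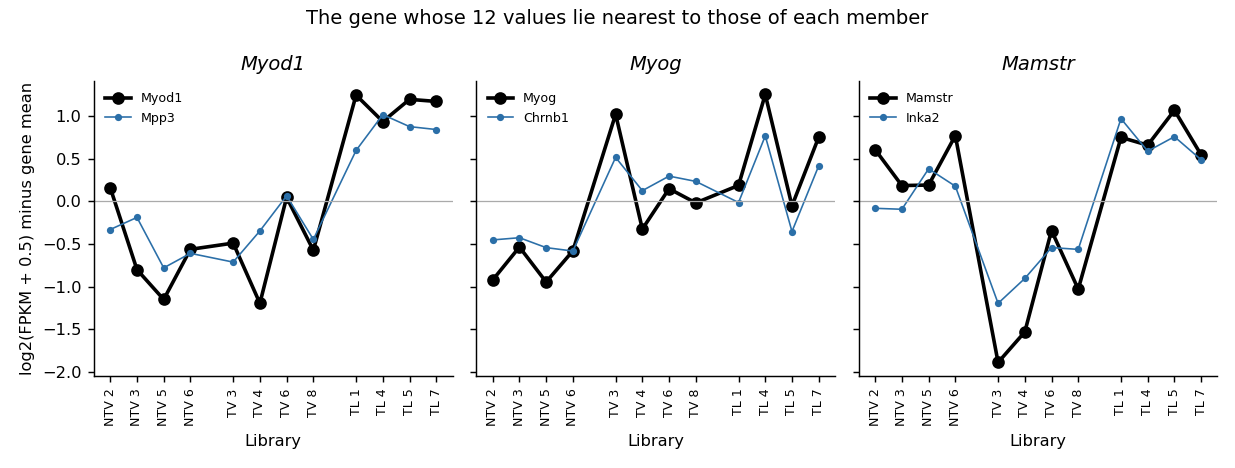
Log2(FPKM + 0.5) minus the gene's mean over the 12 libraries, for Myod1, Myog and Mamstr (black) and the gene most like each (coloured), library by library. Myod1 and its nearest gene Mpp3 are high in the 4 TL libraries, while Mamstr and its nearest gene Inka2 are low in the 4 TV libraries.

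Partners, controllers and known targets of the members were followed in 10 lists, chosen by function with earlier results known. Together the lists held 138 tested genes. Of these 39 were called in TV against NTV, beside the 25.2% of all genes. Limma called 0 of the 138 in TL against TV, beside 0.517% of all genes, and voom on the recovered reads called 0 as well. By limma 23 of the 138 had an unadjusted p under 0.05, beside 2057 of all 12754 tested genes. With so few calls over all genes, 0 does not set these lists apart. Of the 3 E-proteins, the dimer partners of the bHLH factors, Tcf4 fell in TV (-0.40 ± 0.11, adjusted p = 0.0219), while Tcf3 (-0.18 ± 0.11) and Tcf12 (-0.08 ± 0.11) were not called. Of 14 tested inhibitors and repressors, 0 were higher and 4 lower in TV: the Notch target Heyl (2.44 ± 0.562 to 1.15 ± 0.303 FPKM), Mdfic, Snai2 and Twist1. Over all genes 13.8% were called higher and 11.5% lower. The median log2 change of the tested inhibitors was -0.074. The most abundant, Bhlhe40 (0.42 ± 0.24) and Id1 (1.29 ± 0.50), were not called. All 18 listed inhibitors summed to 87.0 to 108 FPKM in NTV and 104 to 148 in TV. Of 23 cofactors, 5 were higher and 1 lower, among them Carm1, an arginine methyltransferase (9.17 ± 0.852 to 12.2 ± 0.781 FPKM), Eya1, and the acetyltransferases Crebbp (0.59 ± 0.14) and Kat2b (0.61 ± 0.17).

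Of 6 tested SRF and SAP-domain coactivators, 2 were higher and 1 lower in TV. Mkl1, the actin-regulated coactivator MRTF-A, fell from 6.36 ± 0.552 to 2.56 ± 1.58 FPKM (-1.31 ± 0.29, adjusted p = 0.00835). In TL it measured 3.82 ± 0.682 FPKM, with no call against TV (0.63 ± 0.29, adjusted p = 0.312). Of the 4 class IIa deacetylases, Hdac5 rose in TV (0.57 ± 0.16, adjusted p = 0.0216), while Hdac4 (0.26 ± 0.21), Hdac7 (-0.28 ± 0.12) and Hdac9 (-0.49 ± 0.22) were not called. Of 25 signalling inputs to MEF2, 2 were higher and 3 lower in TV. Map2k6, which activates p38, fell (-0.79 ± 0.13) and Map2k3, which does so too, rose (0.57 ± 0.12), while Sik1, a kinase of class IIa deacetylases, rose from 6.75 ± 5.09 to 29.4 ± 9.06 FPKM (2.34 ± 0.61, adjusted p = 0.0167).

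Genes known as targets moved in both directions. Of 25 MEF2 targets, 5 were higher and 3 lower in TV, with a median log2 change of 0.37 beside 0.015 for all genes. Des, which encodes desmin, rose from 798 ± 70.4 to 1752 ± 234 FPKM, and Mb, which encodes myoglobin, fell from 2047 ± 282 to 668 ± 121. Of 25 bHLH targets, which share Des and Ckm with that list, 5 were higher and 1 lower in TV (median 0.32), with Itga7, Atp2a1, Des and the M-cadherin gene Cdh15 (7.18 ± 0.646 to 16.7 ± 1.84 FPKM) among the rises. In TL against TV both medians were below 0, at -0.29 and -0.15, with 0 calls, beside 0.517% of all genes. The 14 skeletal muscle fibre markers, some of them also on these target lists, had similar medians. These were 0.43 in TV against NTV and -0.26 in TL against TV. Any link between the target genes and the changes of Myod1 and Mamstr was not tested.

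Of 14 denervation responsive genes, Myog included, 5 were higher and 0 lower in TV (median 0.77), beside 13.8% and 11.5% of all genes. Among the 5 were Chrnb1 (0.79 ± 0.20) and the ubiquitin ligase genes Trim63 (2.12 ± 0.56) and Fbxo32 (1.79 ± 0.54). The other 9 were not called. Their changes were below 0 for Chrnd (-0.18 ± 0.15), Ncam1 (-0.02 ± 0.19) and Hdac9 (-0.49 ± 0.22). Those of Chrna1, Musk, Hdac4, Ankrd1, Cdkn1a and Sln were above 0. In TL against NTV 3 of the 14 were higher (Myog, Chrnb1 and Gadd45a) and 1 lower (Hdac9), beside 4.19% and 4.62% of all genes. Trim63 (0.21 ± 0.56) and Fbxo32 (-0.08 ± 0.54) were not called there. Whether fibres had lost their nerve was not tested. Of 11 embryonic and regenerating fibre genes, Tnnt2 rose in TV against NTV (0.52 ± 0.17, adjusted p = 0.0434). The cardiac actin gene Actc1 fell there from 101 ± 46.4 to 8.78 ± 5.54 FPKM.

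**Figure D5:**
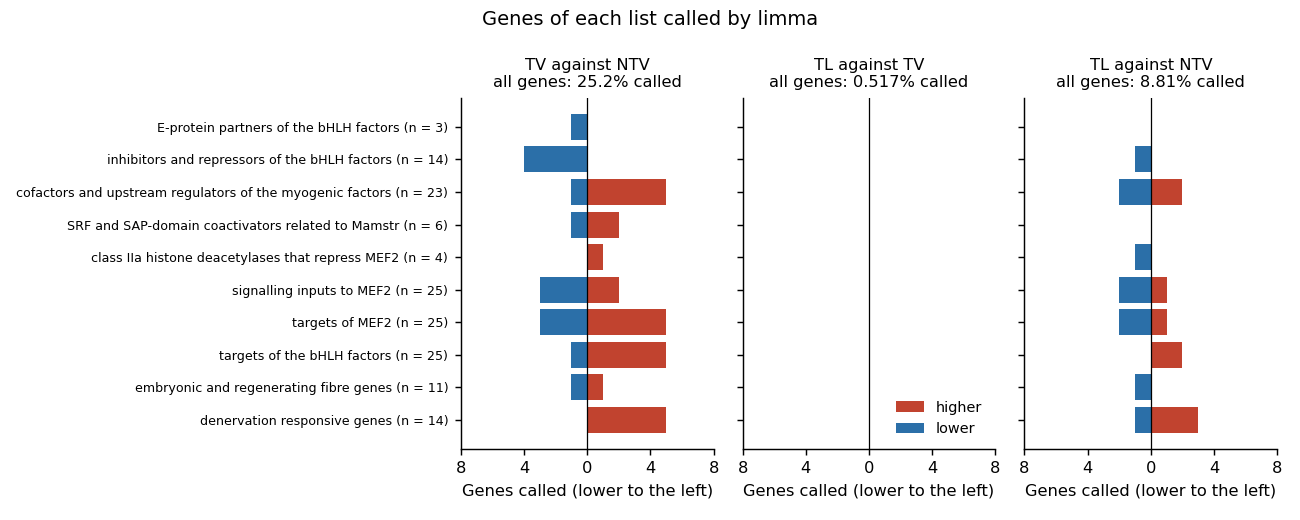
Number of genes called by limma in each of the 10 lists and 3 comparisons, as bars to the right for higher and to the left for lower, with the number tested (n) beside each list. The panel of TL against TV is empty because 0 genes of these lists were called there, beside 0.517% of all genes. Inhibitors of the bHLH factors have 4 lower and 0 higher in TV against NTV, beside 11.5% and 13.8% of all genes.

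Markers of other cells differed beside these results. In TV against NTV 7 of 10 fibroblast markers and 5 of 6 tested tendon markers fell, with summed fibroblast levels of 254 to 374 FPKM in NTV, 136 to 271 in TV and 90.7 to 214 in TL, and tendon levels of 63.9 to 120, 17.4 to 42.3 and 18.7 to 45.7. The median sums of both lists were lower in TV and in TL than in NTV. The part of fibroblasts and tendon cells in the member results was not tested. In TL against TV limma called 0 of the 85 tested markers of all cell types (8 at an unadjusted p under 0.05, and 0 called with voom), beside 0.517% of all genes. Adipocyte markers summed to 46.3 to 239 FPKM in NTV, 116 to 625 in TV and 61.8 to 790 in TL (medians 69.5, 259 and 439.9), and the Myod1 and Mamstr differences without the libraries with Ucp1 are given above.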

How the data were processed

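Muscle RNA of 12 mice was measured; per the labels' protocols, libraries came from poly(A)-selected RNA primed with random hexamers. The authors deposited FPKM for 54532 genes in 12 libraries, with each gene's length in bases beside them. The submitters' processing notes list the build mm10 and the tools DESeq2, featureCounts 1.5.0-p3 and HISAT2 2.05 without their roles, and counting by strand is not given in the sources used here. Columns were mapped to groups by their names, and 0 columns of samples were left out.

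Multiplied by length, 100% of the deposited FPKM values were whole reads after division by the smallest step of their library (tolerance 0.1 read), and these reads gave the depth. The scale between libraries equalled median-of-ratios factors within a relative difference of 1e-06, which assumes that most genes do not differ. In each of the 18 same-group pairs the reads differed beyond counting error (chi-square over its degrees of freedom at least 16.4).

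Changes were tested with limma 3.58.1 (R 4.3.3) on log2(FPKM + 0.5), with 1 mean for each group over all 12 libraries and a trend of variance with level. The 12754 genes whose mean FPKM reached 0.5 were tested, and p-values were adjusted over them by Benjamini-Hochberg. All 9 members passed this filter, so no separate test for low genes was needed. The p-values measure the spread between these mice. The script was tested on simulated data with known changes, drawn independently for each gene and library. That simulation does not show how far the calls given here hold.

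The members and lists were chosen with earlier results of these data known. From each list up to 4 called genes with the smallest adjusted p were eligible to be named, and lists of at most 5 genes were named whole. Of the 3 genes most like Mamstr, 1 is not reported here. Alternatives were other pseudocounts, filters and scalings, only 2 groups, no trend, a replicate block, voom on recovered reads and each library left out. Leaving out the 3 libraries with Ucp1 above 2 FPKM was chosen after seeing the data. Promoter windows come from RefSeq on GRCm38.p6, with chromosome 18 left out, and gene positions from the deposited table, the same as in GENCODE M21 for all 9 members. Figures were drawn with Python 3.11.15 and matplotlib 3.10.9.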

Additional observations from a re-analysis of the deposited data

Results flagged for a closer look

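Of 27 groups of 4 libraries (9 genes in 3 groups), 1 held a library far from the others. Pax7 in TV replicate 6 was 0.663 FPKM (65 reads), where the other 3 TV libraries lay between 0.332 and 0.382 FPKM (27 to 53 reads). Chance alone marks about 1 in 20 such groups.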

How the results depend on the processing

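Against 4 members called in TV against NTV, 2 were called with an equal FPKM total, 2 without the 3 libraries with Ucp1, and 2 to 4 with any 1 library left out. Against 2 in TL against TV, 1 was called with no filter, 0 with only the 2 groups in the fit, 0 without the libraries with Ucp1, and 0 to 2 with 1 library left out; limma gave 3 and 4 members an unadjusted p under 0.05 in the first and second setting with 0. Against 2 in TL against NTV, 1 was called with no filter, 1 without the libraries with Ucp1, and 1 to 2 with 1 library left out.

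Signs turned only for changes that were not called. Myod1 in TV against NTV was -0.018 with quantile scaling, -0.15 without the libraries with Ucp1 and -0.16 to 0.29 with 1 library left out, and Myf6 in TL against TV was 0.0017 without the libraries with Ucp1. With 1 library left out, Myf5 in TV against NTV ranged from -0.00053 to 0.25, Mef2a in TV against NTV from -0.16 to 0.036, Mef2c in TL against TV from -0.097 to 0.25 and Pax7 in TL against NTV from -0.033 to 0.16. The causes were not tested.

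Over all genes, the 66 calls of TL against TV became 7 without TL replicate 5, 12 without TL replicate 1, 22 and 24 without TV replicates 3 and 4, 28 without TL replicate 7, 110 without TV replicate 6, 282 without TL replicate 4, 19 with no filter, 40 with an equal total, 8 with only 2 groups and 0 without the libraries with Ucp1 (908 at an unadjusted p under 0.05). The 1123 calls of TL against NTV became 742 with no filter, 729 with an equal total and 712 without the libraries with Ucp1, and ranged from 514 to 1289 with 1 library left out. The 3217 of TV against NTV stayed within 2216 and 3443. An equal total moved the median log2 change of all genes from 0.022 to 0.14 in TL against NTV and raised the share of calls that were higher from 45.5% to 75% in TL against TV and from 47.6% to 63% in TL against NTV. Of 1380 list counts recomputed, 145 moved by over 1.5 times.

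With a replicate block on the title number, 4, 2 and 2 members were called, as without it. Deviations from the group means had correlations of 0.0142 to 0.133 between same-numbered libraries, and the block fit gave a consensus correlation of 0.0949. These were not compared with libraries of different number, so whether the numbers link the mice is not known. The libraries were treated as unpaired. Depth limits Pax7 and Myf5, with 25 to 117 reads per library.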
